A study of Mus musculus with 18 samples.

Results

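Matrix metalloproteinases (Mmps) are zinc-dependent enzymes that cut the proteins of the extracellular matrix, and tissue inhibitors of metalloproteinases (Timps) are small secreted proteins that block them. The 10 genes described here are Mmp2, Mmp3, Mmp9, Mmp11, Mmp13, Mmp14, Mmp16, Timp1, Timp2 and Timp3. They are the part of the family selected for description, with earlier results of these data known, and 17 further Mmp and Timp genes are described as a list of their own. Each was found by its symbol among the 55335 gene identifiers of the count data, of which 55154 matched the GENCODE M21 annotation of GRCm38. All samples were O9-1 cells, a wild-type neural crest (NC) line derived from the heads of mouse embryos, grown in osteoblast differentiation medium and profiled by bulk RNA-seq of poly(A) RNA. Cells given control siRNA and vehicle (Ctrl+vehicle), control siRNA and the growth factor FGF2 (Ctrl+FGF2), or siRNA against both Yap1 and Wwtr1 together with FGF2 (Y/T dKD+FGF2) were collected after 2.5 days (d2.5) or 5 days (d5), with 3 replicate libraries in each of the 6 groups. All are cultures of 1 cell line, no group received the double knockdown without FGF2, and nothing in the labels says whether replicates were separate cultures, so p-values measure only the spread between these libraries, which may be technical. Each day is also a batch of its own in the sample annotation.

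Most Mmps are made as inactive proenzymes, which are switched on when other proteases remove or displace the prodomain. Mmp13 is a collagenase that cleaves fibrillar collagens and is known from hypertrophic cartilage and bone-forming cells. Mmp2 and Mmp9 are gelatinases, Mmp3 is a stromelysin that can activate other proMmps, and Mmp11 (stromelysin 3) is activated inside the cell by furin-like convertases. Mmp14 and Mmp16 are anchored in the cell membrane, and Mmp14 activates proMmp2 at the cell surface in a complex in which Timp2 serves as the bridge. Timp1 inhibits membrane-type Mmps poorly, whereas Timp3 binds to the matrix and also inhibits several Adam and Adamts proteases.

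The libraries held between 10377151 and 14698525 counts on genes (median 12330911). Levels are counts per 1e6 counts on genes (CPM), scaled with TMM factors (which correct for differences in library composition) over all 18 libraries. Changes are log2 fold changes with their standard error (SE) from edgeR's quasi-likelihood test, fitted on the 9 libraries of 1 day, and a gene is called where its Benjamini-Hochberg adjusted p over all genes of the fit is under 0.05. The siRNA targets went with the labels: Yap1 was at 126 to 132 CPM in the Ctrl+FGF2 and at 65.3 to 69.6 CPM in the Y/T dKD+FGF2 libraries of d2.5, and at 147 to 159 and 67.2 to 74.0 CPM at d5. Wwtr1 was at 219 to 225 CPM against 130 to 142 CPM at d2.5 and at 213 to 219 CPM against 122 to 128 CPM at d5. In Ctrl+vehicle cells of d2.5 Wwtr1 was at 138 to 142 CPM, and FGF2 raised it on that day (log2 fold change 0.65, adjusted p = 1.3e-16). Y/T dKD+FGF2 cells of d2.5 were therefore not called different from vehicle for Wwtr1 (−0.065, adjusted p = 0.122). Of 8 NC and mesenchyme markers, Sox10 and Foxd3 had no count in any group, while the mesenchymal gene Prrx1 was the highest of the list in all of them. Markers of macrophages and osteoclasts, which are rich sources of Mmp9 and Mmp12, summed to between 0.911 and 2.71 CPM per library at d2.5 and between 2.61 and 6.62 CPM at d5.

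Per kb of exon, Timp2 and Mmp2 were the highest members in Ctrl+vehicle cells at d2.5 and in all 3 groups of d5. In both FGF2-treated groups of d2.5, Timp1 stood above Mmp2. The length was that of all annotated exons of a gene joined, not of the transcripts these cells make. The order depends on this length: by CPM alone, Mmp14 (mean 2754) stood beside Mmp2 (2736) and Timp2 (2570) in Ctrl+vehicle cells at d5. In Ctrl+vehicle cells at d2.5, Mmp2 stood at 259 ± 11.9 CPM per kb of exon (SD, n = 3) and Timp2 at 249 ± 1.88 CPM per kb, values that did not differ beyond their spread. Timp1 followed at 135 ± 10.4, Mmp14 at 107 ± 4.05 and Mmp11 at 91.7 ± 9.59 CPM per kb. Mmp13 at 20.3 ± 3.85, Timp3 at 14.1 ± 2.19 and Mmp16 at 2.85 ± 0.317 CPM per kb were lower. Mmp9 reached only 0.0543 ± 0.0287 CPM per kb, and Mmp3 had no count. In Y/T dKD+FGF2 cells at d5 the order was Mmp2 (1023 ± 37.1 CPM per kb), Timp2 (800.5 ± 13.6), Mmp13 (630 ± 65.7), Mmp14 (449 ± 10.2), Mmp11 (282 ± 9.19), Timp1 (105 ± 5.03), Timp3 (45.9 ± 1.06) and Mmp16 (3.12 ± 0.158). Of all members Mmp13 spanned the widest range, 11.94 log2 units between its lowest and highest group mean. In Ctrl+vehicle cells at d5, Mmp14 at 462 ± 27.4 and Mmp13 at 409 ± 69.5 CPM per kb could not be ordered beyond their spread.

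**Figure D1:**
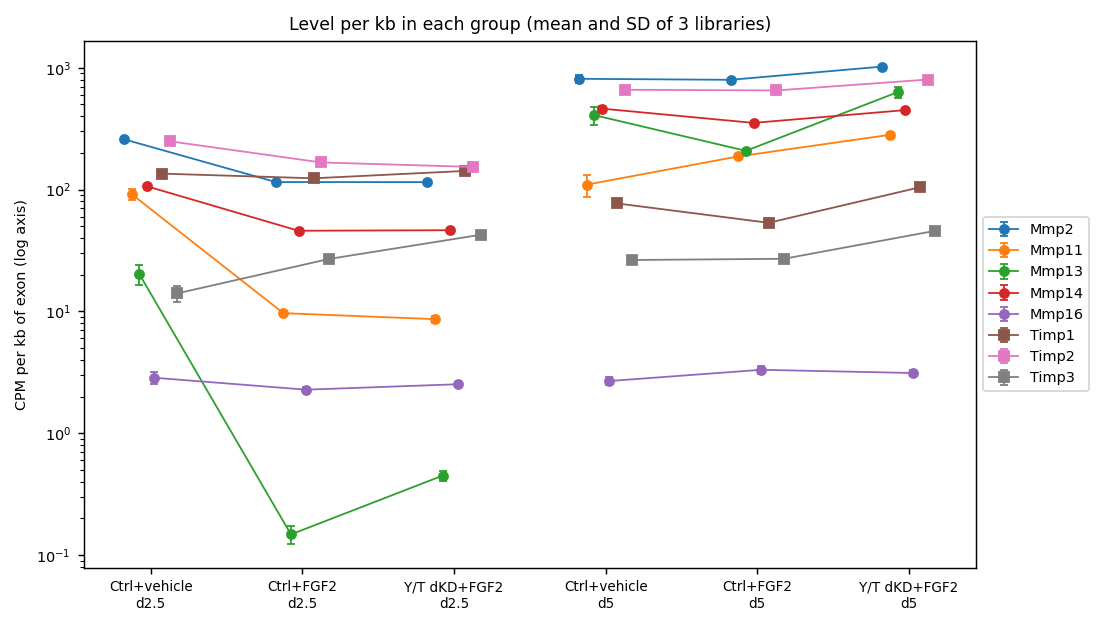
Mean level per kb of exon (CPM per kb, log axis) of the 8 members above 1 CPM in some d2.5 group, in each of the 6 groups, with the SD of 3 libraries; circles are Mmps and squares Timps. Mmp2 and Timp2 lead at d5, Mmp13 falls to 0.148 CPM per kb in Ctrl+FGF2 cells at d2.5 and reaches 630 CPM per kb in Y/T dKD+FGF2 cells at d5, and Mmp16 stays between 2.28 and 3.32 CPM per kb.

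At d2.5, FGF2 lowered all 5 Mmps that could be tested, most of all the collagenase Mmp13 and the stromelysin Mmp11, while it raised the inhibitor Timp3. The comparison of Ctrl+FGF2 with Ctrl+vehicle asks how FGF2 changes cells that are being driven towards osteoblasts. Of the 10 members, 8 passed the filter on low counts, 7 were called lower and 1 was called higher, on a day when 34.1% of the 13677 genes tested were called lower and 33.5% higher. The median log2 fold change of the 8 was −0.88, against 0.00 over all genes tested. These counts describe the members, of which Mmp13 reached the filter without the help of its Ctrl+FGF2 libraries.

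Mmp13 (GRCm38, as for all coordinates here: chromosome 9, 7272514 to 7283331, plus strand) was at 65.1, 44.7 and 52.9 CPM in the Ctrl+vehicle libraries and at 0.352, 0.364 and 0.468 CPM in the Ctrl+FGF2 libraries. The groups were far apart, with 2319 counts in all against 17. Summed over the libraries, this was a 136-fold lower level (95% counting interval 85.0 to 234), and the fitted log2 fold change was −7.07 (SE 0.45, adjusted p = 2.7e-24). Mmp11 (chromosome 10, 75923222 to 75936496, minus strand) was at 226, 279 and 258 CPM without FGF2 and at 26.8, 27.0 and 26.9 CPM with it. All 3 treated libraries were within a few percent of each other and far below the controls, a 9.55-fold lower level (log2 fold change −3.26, SE 0.07, adjusted p = 3e-28). Mmp3 (chromosome 9, 7445822 to 7455975, plus strand) had 0 counts in each Ctrl+vehicle library and 4, 5 and 4 counts in the Ctrl+FGF2 libraries. A count of 0 over 3 libraries allows up to 3 counts, and the 95% counting interval of the ratio had a lower limit of 3.05, but Mmp3 stayed under the filter and was not tested.

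The gelatinase Mmp2 and its activator Mmp14 were reduced to a similar extent. Mmp2 (chromosome 8, 92827291 to 92853420, plus strand) was at 914, 834 and 869 CPM in Ctrl+vehicle and at 390, 384 and 392 CPM in Ctrl+FGF2 libraries, 2.26-fold lower (log2 fold change −1.18, SE 0.03, adjusted p = 4.5e-24). Mmp14 (chromosome 14, 54431612 to 54445364, plus strand) was at 663, 623 and 618 CPM and then at 280, 268 and 273 CPM, 2.34-fold lower (SE of the log2 fold change 0.03, adjusted p = 2.2e-24). For both genes every treated library lay below every control library. Mmp16 (chromosome 4, 17852893 to 18119145, plus strand), the other membrane-type member, changed little: it was at 27.8, 22.4 and 24.0 CPM in vehicle and between 18.8 and 20.4 CPM with FGF2 (log2 fold change −0.34, SE 0.08, adjusted p = 0.00033). The gelatinase Mmp9 (chromosome 2, 164940780 to 164955850, plus strand) had 2 to 4 counts per library in both groups, 8 in all in each, and a difference was not detectable at this depth.

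The 3 inhibitors did not move together. Timp2 (chromosome 11, 118301069 to 118355740, minus strand) fell from 979, 970 and 964.5 CPM to 643, 652 and 657 CPM (log2 fold change −0.59, SE 0.03, adjusted p = 5.5e-18). Timp3 (chromosome 10, 86300372 to 86349506, plus strand) rose from 134, 99.1 and 110.5 CPM to 220.5, 213 and 225 CPM (log2 fold change 0.93, SE 0.06, adjusted p = 2.2e-15). The groups were apart for both genes, in opposite directions. Timp1 (chromosome X, 20870166 to 20874735, plus strand) was at 110, 128 and 122 CPM and at 105, 110 and 115 CPM, so the groups overlapped. It was called lower (log2 fold change −0.14, SE 0.05, adjusted p = 0.00899), a call that was lost without Ctrl+vehicle replicate 2 (−0.09, adjusted p = 0.0983) or Ctrl+FGF2 replicate 1 (−0.11, adjusted p = 0.0756). Timp3 was counted here on its own strand, which gave 1941 counts in Ctrl+vehicle replicate 1, whereas counting without strand gave 1172.

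Cartilage and bone genes moved on the same day. The 6 chondrocyte markers summed to between 605 and 836 CPM per library in Ctrl+vehicle and between 60.6 and 63.6 CPM in Ctrl+FGF2 cells, with Col2a1, the main cartilage collagen, as the highest of the list in the first group. The 7 osteoblast markers summed to between 17150 and 17490 CPM and then between 9155 and 9380 CPM. Of the 6 osteoblast markers tested, 5 were called lower and 1 higher. In bulk RNA, fewer cells of a type and less RNA per cell cannot be told apart, and the part of these shifts in the changes of Mmp13 and Mmp11 was not tested.

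**Figure D2:**
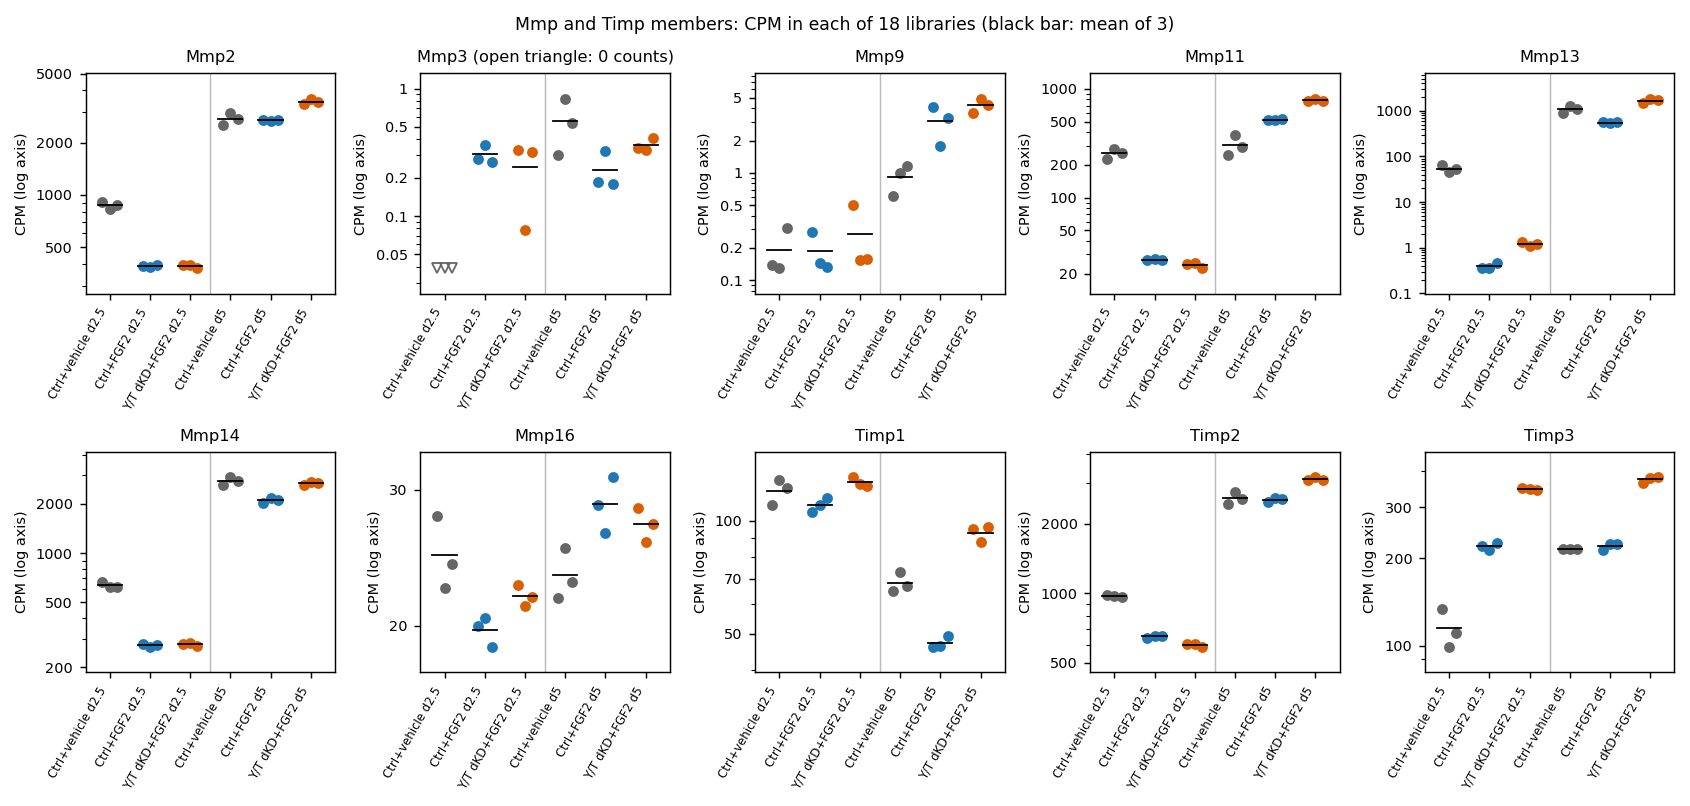
Level of each member (CPM, log axis, a separate scale in each panel) in each of the 18 libraries, grouped by treatment and day; black bars are means of 3 libraries and open triangles are libraries with 0 counts, drawn at an arbitrary height. Ctrl+FGF2 and Y/T dKD+FGF2 libraries of d2.5 sit together far below Ctrl+vehicle for Mmp2, Mmp11 and Mmp14, whereas Timp3 steps up from group to group on that day, and at d5 the Y/T dKD+FGF2 libraries are the highest for Mmp2, Mmp11, Mmp13, Timp1, Timp2 and Timp3.

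The promoter windows searched differ in which transcription factor motifs they hold. RefSeq promoters on GRCm38.p6, which run from 250 bases before to 50 bases after an annotated transcription start, matched 7 of the 10 members. Those of Mmp2, Mmp9 and Mmp16 were not used here. The windows of Mmp11 (75932453 to 75932752) and Timp2 (118355362 to 118355661) lie inside the gene spans given above. For these genes the bases before the span were not searched. Both strands were searched for TGAGTCA (AP-1, the site of Fos and Jun proteins), GGAATG (TEAD, the DNA-binding partners of Yap and Taz), TGTGGT (Runx) and AGGAAG (Ets, the family of Etv4 and Etv5). The AP-1 letters were in 2 of the 7 promoters (5.2% of all 32851 promoters), the TEAD letters in 1 of 7 (14.7%), the Runx letters in 2 of 7 (16.8%) and the Ets letters in 5 of 7 (35.4%). The windows of 30 bases below show the AP-1 and Runx letters and an Ets match of Mmp13, the member with the largest change, then the AP-1 letters of its chromosome 9 neighbour Mmp3, the Runx letters of Mmp14 and the TEAD letters of Timp1. Motif letters are in capitals and all windows read 5′ to 3′ on the strand of the gene, so a match on the other strand appears as its reverse complement.
Mmp13, AP-1, chr9:7272468-7272497: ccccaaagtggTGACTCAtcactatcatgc
Mmp13, Runx, chr9:7272384-7272413: attctgccacaaACCACActtaggaagaaa
Mmp13, Ets, chr9:7272440-7272469: cttcgcctcactAGGAAGttaacacacacc
Mmp3, AP-1, chr9:7445765-7445794: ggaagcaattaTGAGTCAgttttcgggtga
Mmp14, Runx, chr14:54431472-54431501: atggcagcctgcACCACAgaaaagacaaac
Timp1, TEAD, chrX:20869916-20869945: acaGGAATGcctttcttgtgagattgttac

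All 6 windows are on the plus strand. The AP-1 letters begin 35 bases before the start of Mmp13 and 46 bases before that of Mmp3. A match of letters is not a measured binding site, and a window without them says nothing about the factor.

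At d2.5, the double knockdown of Yap1 and Wwtr1 in FGF2-treated cells raised Timp3 and, less firmly, Mmp13, and shifted Timp1 and Timp2 by small amounts, while the other Mmps tested were not called. This comparison, Y/T dKD+FGF2 against Ctrl+FGF2, asks how lowering Yap and Taz changes the members in the presence of FGF2. As no group had the knockdown without FGF2, it cannot show which effects of FGF2 depend on Yap and Taz. Of the 8 members tested, 3 were called higher and 1 lower, where 10.8% of all genes tested were called higher and 13.6% lower, and the median log2 fold change was 0.07 against 0.00 over all genes. The 2 comparisons share the Ctrl+FGF2 libraries, so their values for a member are not independent.

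Timp3 was at 349.5, 347.5 and 343 CPM in the Y/T dKD+FGF2 libraries, above all 3 Ctrl+FGF2 libraries (log2 fold change 0.65, SE 0.05, adjusted p = 1.3e-10). Timp1 was slightly higher, at 131, 125 and 123 CPM (0.19, SE 0.05, adjusted p = 0.00278), and Timp2 slightly lower, at 601, 605 and 588 CPM (−0.13, SE 0.03, adjusted p = 0.001). For all 3 inhibitors the groups did not overlap. Mmp13 was at 1.33, 1.09 and 1.19 CPM, 45 counts against 17 in Ctrl+FGF2 cells, a ratio of 3.02 (95% counting interval 1.70 to 5.63). The fitted log2 fold change was 1.56 (SE 0.53, adjusted p = 0.0188). The call rested on few counts and was lost without Ctrl+FGF2 replicate 1 (adjusted p = 0.0611), Ctrl+FGF2 replicate 2 (0.0557), Y/T dKD+FGF2 replicate 1 (0.0665) or replicate 3 (0.0593), and when all 18 libraries were fitted together (0.126). The chondrocyte markers also moved in this comparison, from between 60.6 and 63.6 CPM to between 71.3 and 75.8 CPM in sum. So did the osteoblast markers, from between 9155 and 9380 CPM to between 10760 and 11180 CPM in sum, with Spp1 as the highest. Of 4 chondrocyte markers tested, 3 were called higher and 0 lower. Of 6 osteoblast markers tested, 3 were called higher and 1 lower (all genes: 10.8% higher, 13.6% lower). The part of these shifts in the members' changes was not tested.

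The other Mmps were not called. Mmp2 was at 394.2, 394.3 and 377 CPM, overlapping the Ctrl+FGF2 libraries, and the 95% interval of its log2 change ran from −0.08 to 0.06. For Mmp14, at 279, 280.5 and 270 CPM, the interval ran from −0.06 to 0.08. Mmp11 was at 24.4, 25.2 and 22.4 CPM, below every Ctrl+FGF2 library, with a log2 change of −0.17 (interval −0.35 to 0.01, adjusted p = 0.155). Without Ctrl+vehicle replicate 1, which leaves the value at −0.17, its adjusted p was 0.0498. Mmp16 was at 22.6, 21.2 and 21.8 CPM, above the Ctrl+FGF2 libraries, with an interval from −0.03 to 0.31 (adjusted p = 0.22). Mmp3 had 4, 1 and 4 counts and Mmp9 6, 2 and 2 counts, and neither was tested.

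Against vehicle, Mmp2, Mmp11, Mmp13, Mmp14 and Timp2 were lower in Y/T dKD+FGF2 cells at d2.5, whereas Timp3 was higher. Of the 8 members tested, 6 were called lower and 1 higher (all genes: 35.7% lower, 34.1% higher), with a median of −0.95 against −0.01 over all genes. Mmp13 remained 45.5-fold lower in the fit (log2 fold change −5.51, SE 0.28, adjusted p = 2.5e-23) and Mmp11 10.8-fold lower (−3.43, SE 0.07, adjusted p = 2.2e-28). Mmp2 and Mmp14 were lower by log2 fold changes of −1.19 (SE 0.03, adjusted p = 4e-24) and −1.22 (SE 0.03, adjusted p = 2.7e-24), and Timp2 by −0.72 (SE 0.03, adjusted p = 3.7e-20). Timp3 was 2.99-fold higher (1.58, SE 0.06, adjusted p = 2e-21), with no overlap. Mmp16 was lower by a small margin with overlapping groups (−0.20, SE 0.08, adjusted p = 0.0263), and this call was lost by DESeq2 (adjusted p = 0.0857), with all 18 libraries in 1 fit (0.0554) and without Ctrl+vehicle replicate 1 (log2 fold change −0.11, adjusted p = 0.251), Y/T dKD+FGF2 replicate 2 (0.0937) or replicate 3 (0.0604). Timp1 was not called (0.05, interval −0.04 to 0.15), but without Ctrl+vehicle replicate 2 its log2 change was 0.11 (adjusted p = 0.039).

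At d5 the effect of FGF2 on the family was smaller and mixed. Of the 9 members tested, 3 were called higher (Mmp9, Mmp11 and Mmp16) and 3 lower (Mmp13, Mmp14 and Timp1), where 23.5% of 13304 genes were called higher and 23.7% lower. The median log2 fold change was −0.01, against 0.02 over all genes. Mmp13 was at 909, 1280 and 1086 CPM in Ctrl+vehicle and at 576, 532 and 560 CPM in Ctrl+FGF2 libraries, so the groups were apart but both were high. This was a 1.95-fold lower level (log2 fold change −0.96, SE 0.09, adjusted p = 8.8e-08). Mmp14 fell from 2589, 2916 and 2757 CPM to 2019, 2169 and 2120 CPM (−0.38, SE 0.04, adjusted p = 8.1e-07). Timp1 fell from 64.9, 73.1 and 67.1 CPM to 46.2, 46.5 and 49.5 CPM (−0.52, SE 0.06, adjusted p = 1.1e-06).

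Mmp11 moved the other way, from 247, 373 and 295 CPM to 512, 518 and 530 CPM (0.78, SE 0.09, adjusted p = 1.1e-06). The 3 vehicle libraries spread widely and still lay below every treated one. Mmp9 was at 0.603, 1.00 and 1.17 CPM in vehicle and at 4.14, 1.79 and 3.23 CPM with FGF2, 31 counts against 103, a ratio of 3.21 (95% counting interval 2.13 to 4.96). Its log2 fold change was 1.69 (SE 0.36, adjusted p = 0.00045). Mmp9 entered the test through the FGF2-treated groups, where it is high, and with at least 10 counts required in every library it left the test and 2 members were called higher. Macrophage and osteoclast markers summed to between 2.61 and 4.04 CPM in vehicle and between 3.22 and 4.32 CPM with FGF2. Mmp16 rose from 21.7, 25.2 and 22.8 CPM to 28.7, 26.4 and 31.2 CPM (0.31, SE 0.08, adjusted p = 0.00407). Mmp2 was at 2518, 2945 and 2745 CPM in vehicle and at 2692, 2678 and 2685 CPM with FGF2, and it was not called (log2 change −0.01, interval −0.11 to 0.08). Nor were Timp2, at 2419, 2728 and 2562 CPM against 2481, 2586 and 2546 CPM (interval −0.09 to 0.08), and Timp3, at 216, 214 and 215 CPM against 214, 223.5 and 223 CPM (interval −0.03 to 0.12). Mmp3 had 3, 10 and 6 counts in vehicle and 2, 4 and 2 with FGF2, too few to be tested. The osteoblast markers summed to between 32310 and 34530 CPM in vehicle and between 17820 and 19210 CPM with FGF2, and the chondrocyte markers to between 201 and 311 and between 279 and 379 CPM. Col1a1 was the highest of the osteoblast list in both groups. Of its 7 genes, 4 were called lower and 3 higher, with Runx2 among the higher (0.40, adjusted p = 6.7e-06).

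**Figure D3:**
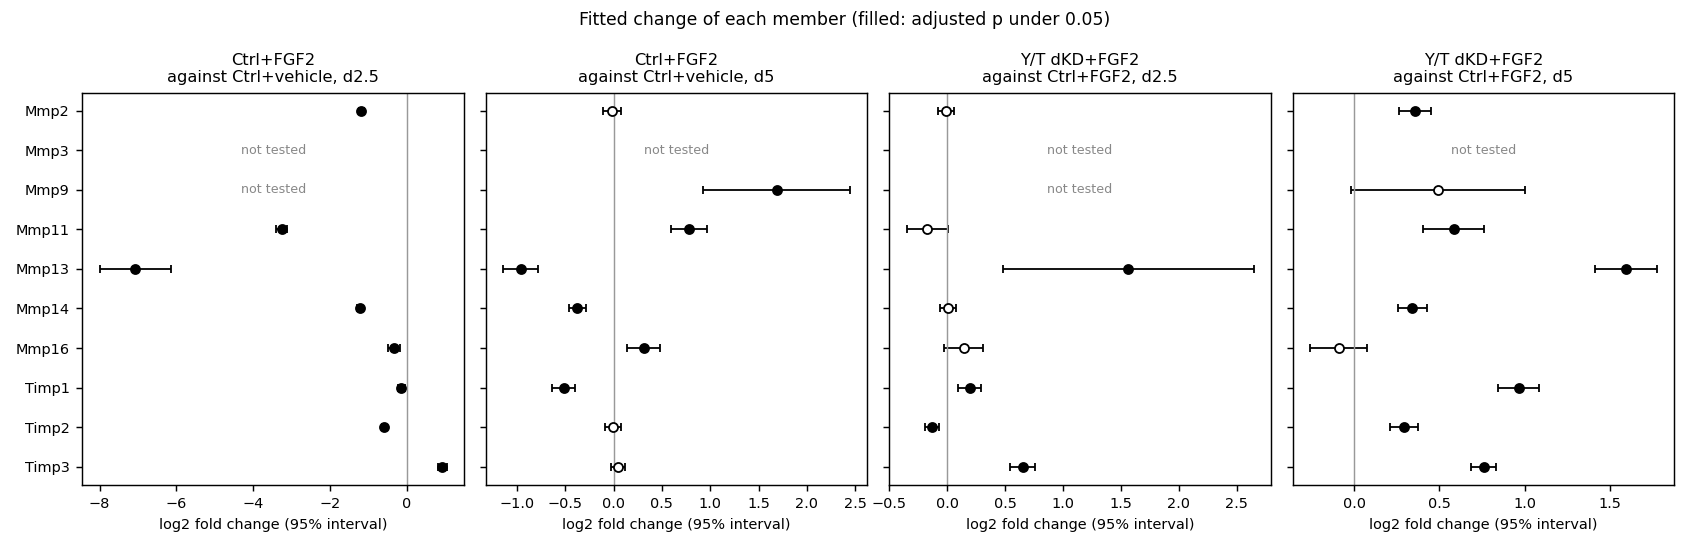
Log2 fold change of each member with its 95% interval, for FGF2 against vehicle and for the double knockdown against Ctrl+FGF2 at d2.5 and d5; filled points have an adjusted p under 0.05, and each panel has its own scale. With FGF2 at d2.5 all tested Mmps lie below 0, down to −7.07 for Mmp13, while for the knockdown at d5 all points but that of Mmp16 lie above 0.

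At d5, the double knockdown raised most of the family above Ctrl+FGF2, including all 3 inhibitors. Of the 9 members tested, 7 were called higher and 0 lower, where 15.6% of genes were called higher and 16.1% lower. The median log2 fold change of the 9 was 0.49, against 0.00 over all genes. Among the members not called by edgeR, none had an unadjusted p below 0.05 in the lower direction, and DESeq2 also called 7 higher and 0 lower. Mmp13 had the largest change: it was at 1501, 1851 and 1703 CPM, 3.02-fold above the Ctrl+FGF2 libraries (log2 fold change 1.59, SE 0.09, adjusted p = 3.6e-10). Mmp11 was at 766, 812 and 770 CPM (0.58, SE 0.09, adjusted p = 3.8e-05). Both genes had every knockdown library above every Ctrl+FGF2 library.

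Mmp2, at 3333, 3580 and 3429 CPM, and Mmp14, at 2610, 2728 and 2693 CPM, rose by similar amounts. Their log2 fold changes were 0.35 (SE 0.04, adjusted p = 7.1e-06) and 0.34 (SE 0.04, adjusted p = 4.4e-06), again with no overlap. Timp1 rose 1.95-fold from its Ctrl+FGF2 level, to 95.1, 87.8 and 95.9 CPM (0.96, SE 0.06, adjusted p = 6.8e-10). Timp3 was at 364.5, 377 and 381 CPM (0.76, SE 0.04, adjusted p = 3.6e-11) and Timp2 at 3083, 3179 and 3093 CPM (0.29, SE 0.04, adjusted p = 1.5e-05). Mmp9 was at 3.57, 4.90 and 4.28 CPM, overlapping the Ctrl+FGF2 libraries, with a log2 change of 0.49 (interval −0.02 to 1.00, adjusted p = 0.135). Its change was 0.77 without Ctrl+FGF2 replicate 1 (adjusted p = 0.0269) and 0.20 without Ctrl+FGF2 replicate 2 (adjusted p = 0.533). Mmp16, at 28.4, 25.7 and 27.1 CPM, was not called (interval −0.26 to 0.08). Mmp3 had 4 counts in each knockdown library. Markers of several cell types moved in this comparison too. All 7 osteoblast markers were called higher (median 0.66 on the log2 scale), and their sum went from between 17820 and 19210 CPM to between 24460 and 26110 CPM. Of 4 chondrocyte markers tested, 2 were called lower and 0 higher. Macrophage and osteoclast markers summed to between 5.32 and 6.62 CPM after knockdown, and Cd68, a lysosomal protein abundant in macrophages, was called higher (1.07, SE 0.24, adjusted p = 0.00197), whereas Csf1r was not (−0.59, adjusted p = 0.218) and Ptprc and Adgre1 had no count in the knockdown libraries. The part of these shifts in the members' changes was not tested.

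Compared with vehicle at d5, Y/T dKD+FGF2 cells had more RNA of every tested member apart from Mmp14. In this comparison 8 of 9 were called higher and 0 lower (all genes: 20.7% higher, 21.1% lower), with a median of 0.45 against 0.01 over all genes. DESeq2 called 7 higher and 0 lower, and Mmp14, the 1 member not called by edgeR, was at −0.03 (interval −0.12 to 0.05, adjusted p = 0.54). Mmp9 was 4.52-fold (log2 fold change 2.18, SE 0.35, adjusted p = 2.2e-05) and Mmp11 2.57-fold higher (1.36, SE 0.09, adjusted p = 1.1e-09). Mmp13 was 1.55-fold (0.63, SE 0.09, adjusted p = 1.1e-05) and Timp3 1.75-fold higher (0.80, SE 0.04, adjusted p = 1e-11). Timp1, Mmp2 and Timp2 were higher by log2 fold changes of 0.45, 0.34 and 0.29, with adjusted p-values of 3.1e-06, 7.5e-06 and 1.3e-05. The small rise of Mmp16 (0.22, SE 0.08, adjusted p = 0.0383) was lost by DESeq2 (adjusted p = 0.128) and without Ctrl+vehicle replicate 1 (0.127), Ctrl+vehicle replicate 3 (0.109), Y/T dKD+FGF2 replicate 1 (0.154) or replicate 3 (0.0772). Without Mmp9, which had 6 to 13 counts per vehicle library, 7 members were called higher. Of the 7 osteoblast markers, 4 were called higher and 2 lower (median 0.52 on the log2 scale). Their sum was lower than in vehicle, with Col1a1 as its largest part (−0.54, SE 0.04, adjusted p = 2.5e-08). Of 2 macrophage and osteoclast markers tested, Cd68 was called higher (1.23, SE 0.25, adjusted p = 0.00054) and Csf1r was not called. The median log2 fold change of the 2 was 0.32, and Ptprc and Adgre1 had no count in the knockdown libraries. The part of these markers in the differences was not tested.

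The effect of FGF2 differed between the days for 8 of the 9 members tested in a fit of all 18 libraries. The difference (d5 minus d2.5, on the log2 scale) was positive for 6 and negative for 2, where 31.8% and 29.1% of 14198 genes were called in these directions. It was largest for Mmp13 (6.08, SE 0.67, adjusted p = 1.4e-15) and Mmp11 (4.01, SE 0.13, adjusted p = 4.7e-21), followed by Mmp2 (1.14, SE 0.06, adjusted p = 2.8e-16) and Mmp14 (0.82, SE 0.05, adjusted p = 8.1e-14). Mmp16 and Timp2 had differences of 0.62 and 0.56. The difference was negative for Timp3 (−0.91, SE 0.08, adjusted p = 6.7e-11) and Timp1 (−0.40, SE 0.08, adjusted p = 7.5e-05). For Timp3 the rise of d2.5 (0.93) was absent at d5 (0.045, not called), whereas for Timp1 the fall was stronger at d5 (−0.52) than at d2.5 (−0.14). Mmp9 was not called (1.67, interval −0.14 to 3.48, adjusted p = 0.107), but without Ctrl+FGF2 replicate 2 of d5 it was (1.96, adjusted p = 0.0366).

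The effect of the knockdown differed between the days for 5 members, all with a positive difference (d5 minus d2.5), where 11.6% of genes were called with a positive and 9.35% with a negative difference. For Timp2 the called effect changed sign, from −0.13 at d2.5 to 0.29 at d5. The 5 differences were those of Timp1 (0.77, SE 0.08, adjusted p = 2.3e-08), Mmp11 (0.75, SE 0.15, adjusted p = 0.00055), Timp2 (0.42, SE 0.05, adjusted p = 1.8e-07), Mmp2 (0.36, SE 0.06, adjusted p = 4e-05) and Mmp14 (0.33, SE 0.06, adjusted p = 4.7e-05). For Timp3 the knockdown effects of the 2 days, 0.65 and 0.76, did not differ beyond error (difference 0.11, interval −0.05 to 0.26). For Mmp13 they were 1.56 and 1.59, but the interval of the difference, from −1.57 to 1.63, is wide, with 17 and 45 counts behind the d2.5 value.

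In Ctrl+vehicle cells, most of the family was higher at d5 than at d2.5. Here 7 of 9 members were called higher and 1 lower (all genes: 33.1% higher, 33.2% lower), but day and batch share a label and cannot be told apart. Mmp13 was 20.2-fold higher (log2 fold change 4.33, SE 0.10, adjusted p = 4.2e-25), Mmp9 4.82-fold (2.27, SE 0.65, adjusted p = 0.0008) and Mmp14 4.34-fold (2.12, SE 0.04, adjusted p = 2.4e-27). Mmp9 entered this fit through the FGF2-treated libraries of d5, where it is high. It had 2 to 4 counts per vehicle library at d2.5 and 6 to 13 at d5, so its place among the 7 rests on few counts. Mmp2 was 3.14-fold (1.65, SE 0.04), Timp2 2.65-fold (1.40, SE 0.03) and Timp3 1.88-fold higher (0.91, SE 0.06). Timp1 was 1.75-fold lower (−0.81, SE 0.05, adjusted p = 8.2e-14). Mmp11 was called higher by 0.26 (SE 0.08, adjusted p = 0.00478) with overlapping groups, and the call was lost without replicate 1 of d2.5 (0.18, adjusted p = 0.0512), without replicate 2 of d5 (0.09, adjusted p = 0.181) and with upper-quartile factors (0.17, adjusted p = 0.0594). Mmp16 was not called (interval −0.25 to 0.09).

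Of the 17 further Mmp and Timp genes, 3 passed the filter at d2.5 and 6 at d5. At d2.5, FGF2 lowered Mmp28 (epilysin, a secreted Mmp), which was at 53.2, 55.0 and 55.3 CPM in vehicle and at 19.2, 20.1 and 21.5 CPM with FGF2 (log2 fold change −1.44, SE 0.07, adjusted p = 1.1e-18). Mmp15, a low-level membrane-type Mmp named after its values were seen, was lower (−1.65, adjusted p = 0.00235) and Mmp19 slightly higher (0.10, SE 0.04, adjusted p = 0.0411). The knockdown lowered Mmp28 further at d2.5 (−0.53, SE 0.09, adjusted p = 2.5e-05). At d5 all 6 were called for the knockdown against Ctrl+FGF2, 2 higher and 4 lower (all genes: 15.6% higher, 16.1% lower). Mmp10 (stromelysin 2) was at 15.8, 20.4 and 26.0 CPM in vehicle, at 5.97, 7.82 and 12.5 CPM with FGF2 and at 39.5, 39.8 and 43.6 CPM with FGF2 and knockdown. FGF2 thus lowered it (−1.22, SE 0.20, adjusted p = 4.8e-05) and the knockdown raised it (2.19, SE 0.19, adjusted p = 3e-08), the same directions as for Mmp13. Mmp17, a membrane-type Mmp held by a lipid anchor, went the opposite way: 4.49 to 5.23 CPM in vehicle, 11.0 to 16.3 CPM with FGF2 (1.48, SE 0.16, adjusted p = 4.2e-07) and 3.49 to 3.87 CPM after knockdown (−1.85, SE 0.17, adjusted p = 9.4e-08). Mmp28 at d5 was also lower after knockdown (−1.19, SE 0.10, adjusted p = 3.2e-08), and Mmp19 was lower with FGF2 (−0.68, SE 0.05, adjusted p = 1.6e-08).

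Of the 16 activators, inhibitors and receptors of Mmps, 14 were tested on each day. With FGF2 at d2.5, 4 were called higher and 9 lower (all genes: 33.5% higher, 34.1% lower), with a median log2 fold change of −0.34. Plat, the tissue plasminogen activator, was raised from between 9.55 and 16.6 CPM to between 28.3 and 29.4 CPM (1.15, SE 0.10, adjusted p = 1.7e-11), and Plaur, the urokinase receptor, by 1.32 (SE 0.07, adjusted p = 2e-16). Furin, a convertase that activates Mmp11 and Mmp14, was lower (−0.44, SE 0.04, adjusted p = 9.2e-12), and so were the membrane-bound Mmp inhibitor Reck (−0.90, SE 0.11, adjusted p = 1.6e-08), the integrin Itgb3 (−1.42, SE 0.19, adjusted p = 2.6e-08) and urokinase, Plau (−0.20, SE 0.07, adjusted p = 0.0138). At d5 the list split into 2 higher and 7 lower (all genes: 23.5% higher, 23.7% lower). Furin was then higher with FGF2 (0.73, SE 0.05, adjusted p = 3.1e-09) and Plat lower (−0.76, SE 0.05, adjusted p = 2.1e-09).

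For the knockdown at d2.5, 3 of the 14 were called higher and 4 lower, among them Itgb3 (1.18, SE 0.19, adjusted p = 2.3e-05), Plat (0.51, SE 0.08, adjusted p = 3.9e-05) and the Mmp uptake receptor Lrp1 (−0.43, SE 0.04, adjusted p = 8.3e-10). At d5, 5 were called higher and 3 lower. Of all genes, 10.8% were called higher and 13.6% lower for the knockdown at d2.5, and 15.6% and 16.1% at d5. Reck fell from between 50.8 and 52.0 CPM to between 30.2 and 35.3 CPM (−0.64, SE 0.07, adjusted p = 6.2e-07), while the Timps rose. Itgb3 (0.77, SE 0.07, adjusted p = 3.9e-07) and Plaur (0.62, SE 0.11, adjusted p = 0.00027) were higher, and Furin was lower (−0.37, SE 0.05, adjusted p = 1.7e-05).

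Among the 28 Adam and Adamts genes, related metalloproteinases of which several are inhibited by Timp3, 18 were tested at d2.5. FGF2 lowered 15 of them and raised 2, with a median of −0.76. Of all genes, 34.1% were called lower and 33.5% higher with FGF2 at d2.5, and 23.7% and 23.5% at d5. For the knockdown, 13.6% were called lower and 10.8% higher at d2.5, and 16.1% and 15.6% at d5. The aggrecanases Adamts4 (−2.97, SE 0.11, adjusted p = 7.7e-23) and Adamts1 (−1.91, SE 0.04, adjusted p = 3.3e-28) and the related Adamts12 (−2.32, SE 0.06, adjusted p = 2.2e-26) fell most. At d5, 9 of 19 were higher and 5 lower, with Adam23 among the latter (−1.23, SE 0.08, adjusted p = 5.8e-10). The knockdown moved 4 up and 5 down at d2.5, with Adam8 lower (−0.78, SE 0.08, adjusted p = 2e-08), and 5 up and 7 down at d5, with Adamts2, which processes procollagen, lower (−0.70, SE 0.06, adjusted p = 2.9e-08) and Adamts12 higher (0.58, SE 0.06, adjusted p = 2.8e-07).

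Among 21 matrix substrates, FGF2 lowered 13 and raised 5 of the 19 tested at d2.5 (median −1.46), and lowered 14 and raised 3 of the 20 tested at d5 (median −0.51). Over all genes, FGF2 lowered 34.1% and raised 33.5% at d2.5, and lowered 23.7% and raised 23.5% at d5. The knockdown lowered 13.6% and raised 10.8% at d2.5, and lowered 16.1% and raised 15.6% at d5. Col1a1, the main collagen of bone, fell from between 12530 and 12790 CPM to between 2144 and 2261 CPM at d2.5 (−2.53, SE 0.03, adjusted p = 1.4e-33) and by a log2 fold change of −0.93 at d5 (SE 0.04, adjusted p = 3.1e-11). The cartilage collagens Col2a1 (−8.87, SE 0.47, adjusted p = 1.1e-27) and Col10a1 (−5.66, SE 0.24, adjusted p = 8.5e-26) and the matrix glycoprotein Tnc (−6.76, SE 0.09, adjusted p = 3.1e-37) fell most at d2.5. At d5 the knockdown raised 10 and lowered 2 of 20, among them Dcn (0.74, SE 0.07, adjusted p = 3.5e-07), Col3a1 (0.70, SE 0.05, adjusted p = 3.9e-09) and Col1a1 (0.39, SE 0.04, adjusted p = 2.5e-06), whereas at d2.5 it raised 4 and lowered 4 of 19, Col1a1 among the latter (−0.14, SE 0.03, adjusted p = 0.00049).

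All 16 transcription factors known to act on Mmp genes were tested. The shares of all genes called higher and lower with FGF2 were 33.5% and 34.1% at d2.5 and 23.5% and 23.7% at d5. For the knockdown they were 10.8% and 13.6% at d2.5 and 15.6% and 16.1% at d5. With FGF2 at d2.5, 7 were called higher and 6 lower, including Etv4 (3.90, SE 0.07, adjusted p = 2.6e-31), Etv5 (3.86, SE 0.07, adjusted p = 4.1e-31) and the AP-1 subunit Fosl1 (2.46, SE 0.08, adjusted p = 2.1e-23) on the higher side. The osteoblast factors Sp7 (−2.82, SE 0.11, adjusted p = 5.1e-21) and Runx2 (−0.84, SE 0.04, adjusted p = 2e-18) were lower. The knockdown at d2.5 lowered 9 and raised 1. Fosl1 (−0.48, SE 0.06, adjusted p = 3.9e-07) and Jund (−0.49, SE 0.06, adjusted p = 1.3e-06) were among the 9, and Sp7 (0.46, SE 0.13, adjusted p = 0.00976) was the 1 that rose. At d5 it raised 11 and lowered 1, with Etv4 (1.52, SE 0.15, adjusted p = 2.3e-07), Fosl1 (1.18, SE 0.17, adjusted p = 2.7e-05) and Fos (0.93, SE 0.12, adjusted p = 8.9e-06) showing the largest changes and Runx2 a small one (0.15, SE 0.05, adjusted p = 0.0356). FGF2 at d5 raised 10 and lowered 2, Runx2 among the first (0.40, SE 0.05, adjusted p = 6.7e-06).

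**Figure D4:**
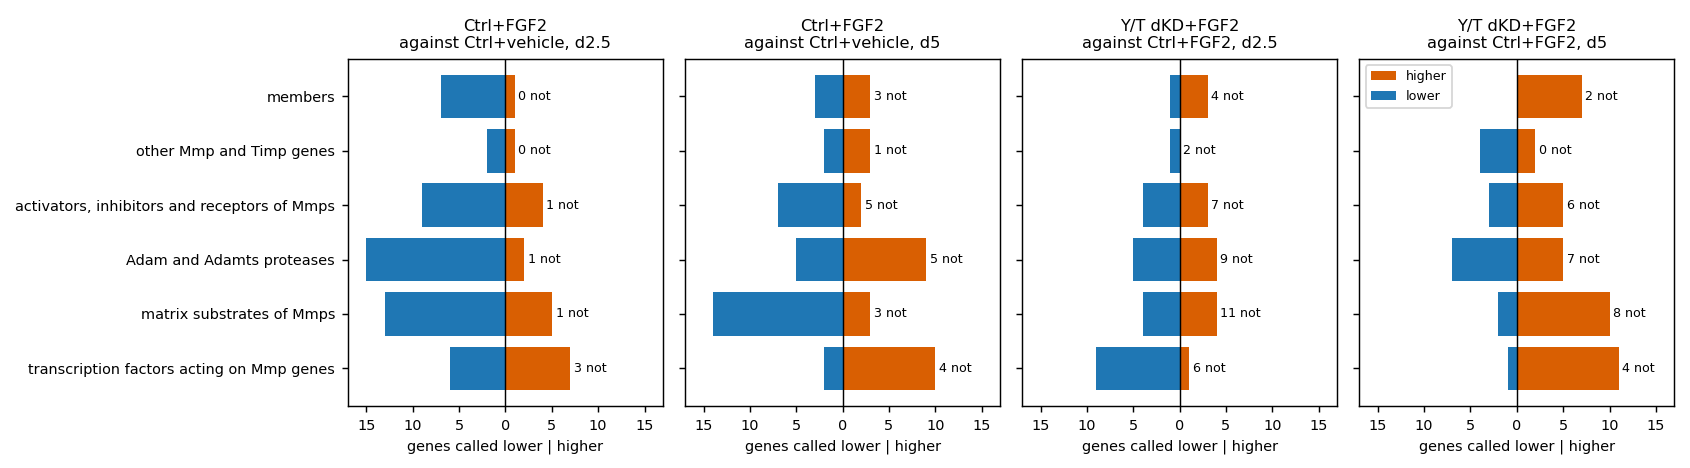
Number of genes of the family and of 5 related lists called lower (bars to the left) or higher (bars to the right) at an adjusted p under 0.05 in 4 comparisons; the number after each bar is that of tested genes not called. The members go from 7 lower and 1 higher with FGF2 at d2.5 (all genes: 34.1% lower, 33.5% higher) to 7 higher and 0 lower with the knockdown at d5 (all genes: 15.6% higher, 16.1% lower).

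Across the 18 libraries, the genes whose log2 CPM followed that of Mmp13 most closely, among 11609 genes, were Kif26b and Antxr1 (Pearson r = 0.997 each) and Serinc5 (r = 0.996). For Timp2, the inhibitor with the widest range of group means (2.38 log2 units), they were Lgmn (r = 0.998), Ccn1 and Ankrd44 (r = 0.995 each). These are descriptions over libraries that fall into 6 groups and 2 days, so that any gene with like group means reaches a high r.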

How the data were processed

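Libraries of poly(A) RNA were made with a SMARTER mRNA-Seq kit per the labels. The authors deposited raw counts per gene for each library, not normalized, in unstranded, forward and reverse columns. The submitters' processing notes name FastQC, STAR, Picard, featureCounts and the build mm10, with no versions or roles. The reverse column was used, which held 96.0% to 96.6% of stranded counts. Entries not assigned to a single gene (27.0% to 34.4% of a library) stayed out of totals and tests. They were unmapped, in several places, on no gene or ambiguous between genes. Reads in several places were not assigned, which can lower near-identical copies.

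The main test was the quasi-likelihood test of edgeR 4.0.16 under R 4.3.3 (TMM, filterByExpr, Benjamini-Hochberg over all genes), with 9 libraries per day or, for differences between days and vehicle over time, all 18. SEs are Wald errors of the fitted model. Intervals of count ratios (95%) and limits from 0 counts (3 counts) cover counting error only. The test was run on counts simulated from its own fitted model. Such counts cannot show whether it suits replicates that may be technical. Alternatives were DESeq2 1.42.0, size factors by RLE or upper quartile, omitting the filter, a filter of 10 counts in each library, only the 2 groups compared, all 18 libraries in 1 fit, a replicate block, unstranded counts and leaving out each library.

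The members and lists were chosen with earlier results of these data known. From each related list, genes were named where they were called in a comparison and among the 3 with the largest change at a mean log2 CPM of at least 1, or belonged to a fixed set (Plau, Plat, Furin, Reck, Bsg, Col1a1, Runx2, Fosl1), and not all of them are reported here. Mmp15 is the exception. The genes most like a member were taken for the Mmp and the Timp with the widest range.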

Additional observations from a re-analysis of the deposited data

Results flagged for a closer look

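The effect of FGF2 differed between d5 and d2.5 by the interaction term of the 18-library fit for 8 members. On the log2 scale (d5 minus d2.5) the difference was 1.14 for Mmp2, 4.01 for Mmp11, 6.08 for Mmp13, 0.82 for Mmp14, 0.62 for Mmp16, 0.56 for Timp2, −0.40 for Timp1 and −0.91 for Timp3. The effect of the knockdown differed by the same kind of term for 5 members, by 0.36 for Mmp2, 0.75 for Mmp11, 0.33 for Mmp14, 0.77 for Timp1 and 0.42 for Timp2. For Mmp11 the FGF2 effect changed sign between the days, from −3.26 to 0.78. Day and batch share a label, so time and batch cannot be told apart in these differences. Groups of 3 libraries are too small for the test of single outlying values. Over all genes, Ctrl+FGF2 replicate 2 of d2.5 stood further from replicates 1 and 3 (chi-square per gene 3.70 and 2.83) than these did from each other (1.25), and the widest pair was Ctrl+vehicle replicates 1 and 2 of d5 (6.41).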

How the results depend on the processing

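The number of members called stayed within 1.5 times its value in all 9 comparisons under the 183 combinations of comparison and alternative run. It ranged from 7 to 9 (FGF2, d2.5), 3 to 5 (knockdown, d2.5), 6 to 8 (knockdown against vehicle, d2.5), 5 to 6 (FGF2, d5), 7 to 8 (knockdown, d5, and knockdown against vehicle, d5), 7 to 9 and 5 to 5 (day differences of FGF2 and knockdown) and 6 to 9 (vehicle over time). Without a filter Mmp3 entered the tests, and with FGF2 at d2.5 2 members were then called higher and 7 lower, so the uniform direction of the Mmps depends on the filter. Under the filter of 10 counts in every library Mmp13 left the tests of d2.5. The replicate block left the 9 counts at 8, 4, 7, 6, 7, 8, 8, 5 and 8. Same-numbered libraries did not deviate together (18 pairs, correlations from −0.06 to 0.08), so the numbers give no pairing. Signs turned only for values that were not called, and the cause was not tested. With upper-quartile factors, FGF2 at d5 gave 0.012 for Mmp2 and 0.021 for Timp2. The difference of the knockdown effect between days was −0.034 for Mmp9 and −0.001 for Mmp13 by DESeq2, and for Mmp9 −0.015 with upper-quartile factors and −0.011 without a filter. Leaving out single libraries put that difference between −0.399 and 0.734 for Mmp9 and between −0.119 and 0.106 for Mmp13. It put the knockdown at d2.5 between −0.010 and 0.023 for Mmp14 and between −0.026 and 0.010 for Mmp2, FGF2 at d5 between −0.070 and 0.038 for Mmp2 and between −0.046 and 0.036 for Timp2, knockdown against vehicle at d2.5 between −0.011 and 0.105 for Timp1, and vehicle over time between −0.154 and 0.005 for Mmp16 and between −0.067 and 0.013 for Yap1. Depth limits Mmp3 and Mmp9 on both days and Mmp13 in FGF2-treated cells at d2.5.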
